A study of Drosophila melanogaster with 8 samples.

Results

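Transfer RNA (tRNA) genes of the nuclear genome are described here by the open chromatin found at them in primordial germ cells (PGCs), the embryonic cells that found the germline, and in somatic cells of the same Drosophila melanogaster embryos. The members were all genes of biotype tRNA on chromosomes 2, 3, 4 and X in the release 6 annotation, chosen by biotype and position and not by any measured value. This gave 290 genes out of 18164 annotated genes on these chromosomes, transposable elements not counted. Arm 2L held 41 of them, 2R 98, 3L 48, 3R 79 and X 24, and chromosome 4 held none. The 22 tRNA genes of the mitochondrial genome were left out.

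The PGCs were the GFP-positive cells, and the somatic cells the GFP-negative cells, sorted from late embryos of 1 strain of genotype Vas::EGFP, collected overnight from flies kept at 25 °C. All groups carried the Vas::EGFP transgene, whose GFP-tagged Vasa protein marks germ cells, so the somatic group is a mixture of every embryonic cell type without GFP. Cryopreserved cells of both groups were profiled by ATAC-seq, in which a transposase cuts accessible DNA, in 2 replicates each. Each deposited peak list is the average of 1 cell type's replicates, so neither a spread between replicates nor the depth of a library can be read from the lists, and PGCs could not be tested against somatic cells.

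tRNA genes are transcribed by RNA polymerase III from promoter elements that lie inside the gene, the A box and the B box, which bind the factor TFIIIC. TFIIIC places TFIIIB just upstream of the gene, TFIIIB recruits the polymerase, and transcription ends at a short run of T after the gene. Flies carry many identical copies of most tRNA genes, scattered alone or in tight clusters, and in yeast, transcribed copies are known to be free of nucleosomes.

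Heights are in RPKM, read coverage at the summit of a peak scaled by length and by the mapped reads of the library, and both lists hold only peaks of at least 50 RPKM. A gene was counted as having a peak when the edge of a peak lay within 200 bp of it, and its height is that of the highest such peak. Shares are given with exact 95% Clopper-Pearson intervals, which cover counting error only. The PGC list held 19504 peaks on these chromosomes and the somatic list 17411. Of 11 PGC marker genes listed, 10 were found in the annotation, of which 9 had a PGC peak at a start site and 1 a somatic peak. Of 12 marker genes of somatic lineages, 11 had a PGC peak, with a median of 152.6 RPKM. A somatic peak lay at 9 of the 12, with a median of 103.3 RPKM. PGC peaks at the PGC markers were lower than those at the somatic markers, with a median of 72.5 RPKM and a maximum of 140.3 RPKM. Among the PGC markers, pgc had a peak in neither list. Among the somatic markers, srp and tj had a peak in PGCs but none in somatic cells, and bin had none in either list. What part the purity of the sort has in any value was not tested.

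The sequences of tRNA genes set a limit on what uniquely mapped reads can show. The 290 genes had 95 distinct sequences, and 238 genes shared theirs with at least 1 other copy. Flanking DNA nevertheless made most copies distinguishable. All 100-bp windows that touch the gene were unique in the reference for 275 genes, and all 150-bp windows for 283. Among the 15 genes with repeated 100-bp windows, 10 had a peak in PGCs and 1 in somatic cells, so their missing peaks cannot be told apart from missing unique reads.

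Cysteine tRNA genes show how the members of a small family, all on arm 3L, differed in sequence and in peak height. The release 6 assembly from RefSeq was read 5′ to 3′ on the strand of each gene, and capitals mark bases that differ from the first gene of the set.

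tRNA:Cys-GCA-1-1: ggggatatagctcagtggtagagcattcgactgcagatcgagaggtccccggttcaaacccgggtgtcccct
tRNA:Cys-GCA-3-1: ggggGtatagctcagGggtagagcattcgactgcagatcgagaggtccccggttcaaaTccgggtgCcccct
tRNA:Cys-GCA-4-1: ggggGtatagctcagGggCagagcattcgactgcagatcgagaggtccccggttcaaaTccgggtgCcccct
tRNA:Cys-GCA-2-1: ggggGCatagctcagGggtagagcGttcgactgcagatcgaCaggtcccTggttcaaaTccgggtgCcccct

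The first sequence has 4 identical copies, in introns of Cht7 and within a cluster of 6 tRNA genes (chr3L:3095737-3095808 for copy 1-1). Copies 1-1, 1-2 and 1-3 lay under a single PGC peak of 464.6 RPKM and a somatic peak of 122.9 RPKM, and copy 1-4 had 123.6 RPKM in PGCs and 59.4 in somatic cells. tRNA:Cys-GCA-3-1 (chr3L:2273744-2273815, intergenic), which differs by 4 bases (A5G, T16G, C59T and T67C, counted from 1 at the 5′ end of the gene, with the base of Cys-GCA-1-1 first), had a PGC peak of 61.7 RPKM and no somatic peak. tRNA:Cys-GCA-4-1 (chr3L:21854094-21854165, in an intron of mub) carries the same changes plus T19C and had no peak in either list. tRNA:Cys-GCA-2-1 (chr3L:1925641-1925712, in an intron of Dbx) differs by 8 bases and also had none. The copies with the tall peak were those of the repeated sequence, and the 3 single-copy variants had a low peak or none.

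Arginine tRNA genes reading the anticodon TCG gave another set, in which variants differ by 1 or 2 bases. Capitals again mark differences from the first gene.

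tRNA:Arg-TCG-2-1: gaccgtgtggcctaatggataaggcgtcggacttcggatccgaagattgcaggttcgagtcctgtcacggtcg
tRNA:Arg-TCG-3-1: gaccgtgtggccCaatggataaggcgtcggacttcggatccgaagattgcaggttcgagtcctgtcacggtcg
tRNA:Arg-TCG-1-1: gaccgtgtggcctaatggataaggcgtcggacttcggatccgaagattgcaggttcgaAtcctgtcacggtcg
tRNA:Arg-TCG-4-1: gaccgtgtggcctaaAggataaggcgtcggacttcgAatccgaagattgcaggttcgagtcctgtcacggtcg

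tRNA:Arg-TCG-2-1 (chrX:14014814-14014886) had 348.5 RPKM in PGCs and 50.1 in somatic cells. Its identical copies had 188.9 RPKM in PGCs and 73.9 in somatic cells (copies 2-3 and 2-4 on 3R), and 120.6 RPKM in PGCs with no somatic peak (copy 2-2 on X). tRNA:Arg-TCG-3-1 (chrX:14016203-14016275, T13C) had 95.3 RPKM in PGCs, and its 3 identical neighbours shared another PGC peak. None of these 4 copies had a somatic peak, and 3 of them have repeated 100-bp windows. tRNA:Arg-TCG-1-1 (chrX:14103719-14103791, G59A) had 190.1 RPKM in PGCs and no somatic peak. tRNA:Arg-TCG-4-1 (chr3R:5388228-5388300, T16A and G37A), in an intron of kkv, was the 1 member of the set with no peak in either list.

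Most tRNA genes had a peak in the PGC list, and fewer had one in the somatic list. A PGC peak lay at 262 of 290 tRNA genes (90.3%, interval 86.3 to 93.5%) and a somatic peak at 112 (38.6%, 33.0 to 44.5%). Over all annotated genes the same window found a PGC peak at 52.1% and a somatic peak at 40.3%. The PGC share of tRNA genes lay above that of all genes, and the interval of the somatic share included its background. All 112 tRNA genes with a somatic peak also had a PGC peak, so 38.6% of tRNA genes were open in both lists, against 34.1% of all genes. A peak in the PGC list alone was found at 150 tRNA genes, against 18.0% of all genes, and a peak in the somatic list alone at 0 tRNA genes (interval up to 1.26%), against 6.28% of all genes. The remaining 28 tRNA genes (9.66%, 6.51 to 13.7%) had no peak.

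tRNA genes have a median length of 73 bp, and a longer gene offers more room for a peak, so start sites were also compared. At annotated start sites alone, 90.3% of tRNA genes had a PGC peak, against 45.1% (44.2 to 45.9%) of 13945 protein-coding genes. For the somatic list the shares at start sites were 38.3% of tRNA genes and 20.9% (20.3 to 21.6%) of protein-coding genes. At start sites both shares, over all tRNA genes together, lay above those of protein-coding genes. A PGC peak alone lay at the start sites of 52.1% of tRNA genes and 25.8% of protein-coding genes. A somatic peak alone lay at 0 and 1.67%. Among genes with a PGC peak at a start site, 151 of 262 tRNA genes and 3600 of 6285 protein-coding genes had no somatic peak there, which are similar shares. Of the 76 tRNA genes with no other tRNA gene within 5 kb, 11.8% (5.56 to 21.3%) had a somatic peak within 200 bp. That interval included the 20.9% of protein-coding start sites. Of the 69 such tRNA genes over 500 bp from a protein-coding start site, 8.70% (3.26 to 18.0%) had a somatic peak, an interval below 20.9%.

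**Figure D1:**
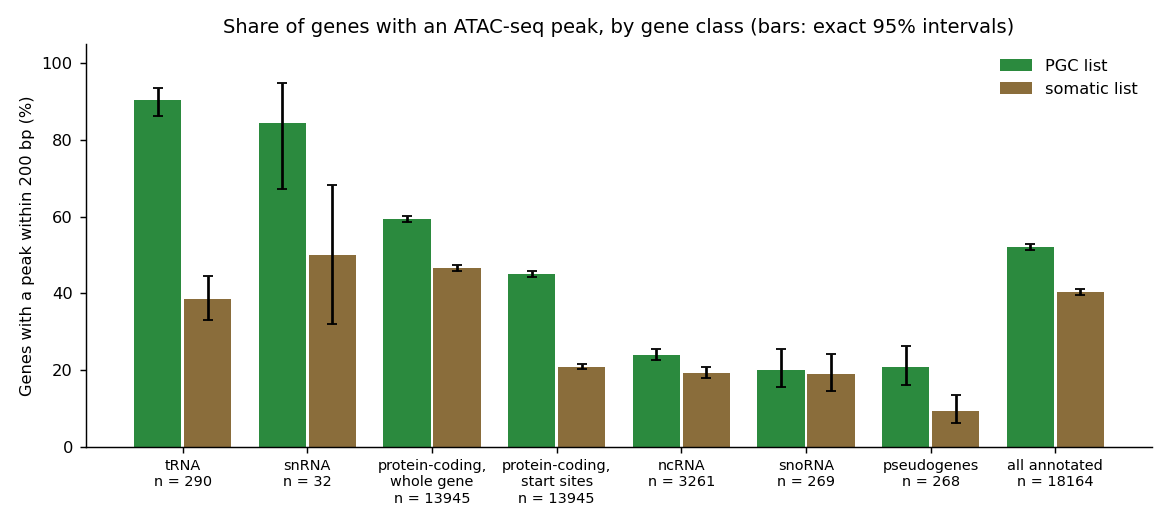
Share of genes with a peak within 200 bp in the PGC list (green, left bar) and in the somatic list (brown, right bar) for 8 gene classes, with exact 95% intervals. The bars of tRNA genes reach 90.3% for PGCs and 38.6% for somatic cells, and snRNA genes have the next tallest PGC bar, at 84.4%.

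Among the other biotypes counted, small nuclear RNA (snRNA) genes, most of which encode RNAs of the spliceosome, had the highest PGC share. A PGC peak lay at 27 of 32 snRNA genes (84.4%, 67.2 to 94.7%) and a somatic peak at 16 (interval 31.9 to 68.1%), and these intervals overlap those of tRNA genes. Small nucleolar RNA genes, which guide RNA modification and mostly lie in introns of other genes, had a PGC peak at 54 and a somatic peak at 51 of 269 genes. Genes of biotype ncRNA had 23.9% and 19.3%. The 100 annotated 5S rRNA genes, which lie in a repeated array, had no peak in either list, and their missing peaks cannot be told apart from missing unique reads.

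Peaks at tRNA genes were also tall. The median height over genes with a peak was 179.5 RPKM in PGCs (order-statistic interval 152.2 to 192.4) and 78.4 RPKM in somatic cells (71.0 to 84.8). Annotated genes other than tRNA genes had medians of 88.2 RPKM in PGCs and 60.5 in somatic cells. Protein-coding start sites had medians of 97.7 RPKM in PGCs and 65.3 in somatic cells. The tRNA genes with no other within 5 kb came close to these, at 109.7 RPKM in PGCs and 65.3 in somatic cells (9 genes with a somatic peak). The intervals enter a shared peak as several genes, and 143 genes shared their PGC peak with another tRNA gene. Counted as peaks, 173 PGC peaks lay at tRNA genes, with a median height of 136.8 RPKM, below the interval over genes. The other PGC peaks had a median of 61.9 RPKM. The median of the 173 peaks stood at the 89.1 percentile of the PGC list. Somatic peaks at tRNA genes numbered 73, at a median of the 82.6 percentile of their own list. Peaks at tRNA genes were 0.887% of the PGC list and 0.419% of the somatic list. They made up 10 of the 100 highest PGC peaks and 1 of the 100 highest somatic peaks. Their median width was 450 bp in PGCs and 250 bp in somatic cells, against 150 bp for the other peaks of either list.

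Where a tRNA gene had a peak in both lists, the PGC peak was the higher at all 112 genes. The same held for 85.1% of all genes with both peaks, so a taller PGC peak was common to most genes. At tRNA genes the PGC height was 3.78 times the somatic height at the median (quartiles 3.25 and 4.56, range 1.79 to 10.79), against 1.67 times over all genes and 1.66 times over protein-coding genes. It was 2.10 times at protein-coding start sites, where 92.0% had the higher peak in PGCs, and 2.72 times at snRNA genes, where all 16 did. The lowest ratio, 1.79, belonged to tRNA:Glu-TTC-1-1, tRNA:Glu-CTC-1-1 and tRNA:Glu-TTC-1-2, glutamate tRNA genes in introns of mrj that shared 1 PGC peak of 192.1 RPKM and 1 somatic peak of 107.4 RPKM. The highest, 10.79, belonged to tRNA:Ile-AAT-1-3, which lies under a PGC peak of 683.2 RPKM and overlaps the edge of a somatic peak of 63.3 RPKM that is 50 bp wide. The PGC summit was at -521 bp from its 5′ end, and tRNA:Leu-CAA-2-1, for which the same summit was at -61 bp, had a ratio of 3.88. As the lists were scaled per library and not to each other, the ratios are read against those of other genes and not as an absolute change.

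**Figure D2:**
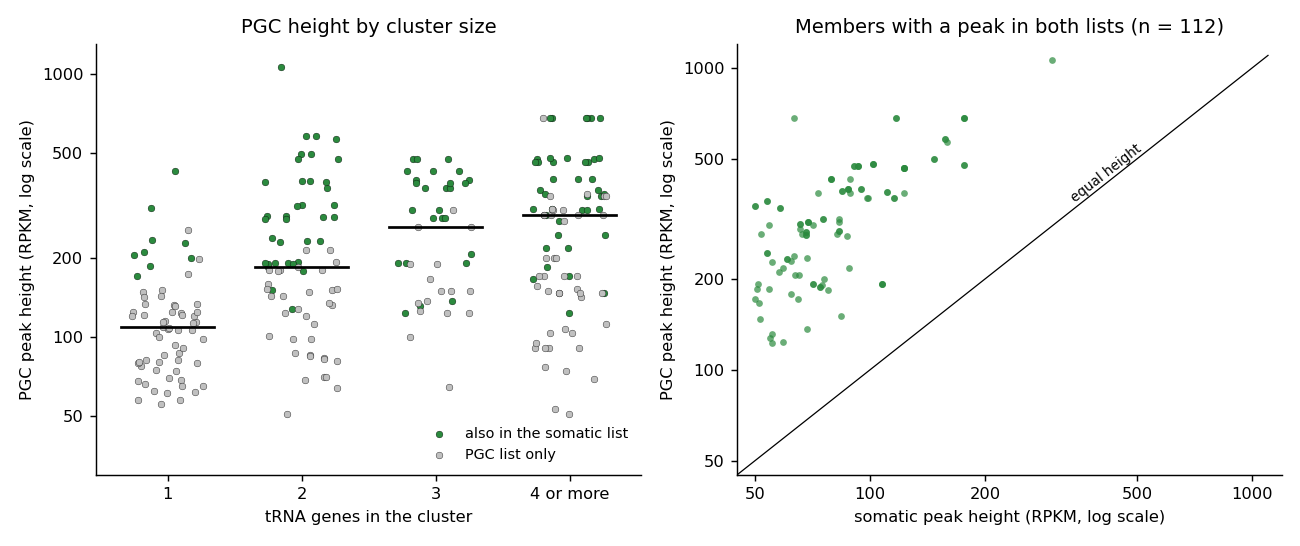
Left, PGC peak height (RPKM, log scale) of each tRNA gene by the number of tRNA genes in its cluster, green where the gene also had a somatic peak and grey where it did not, with the median as a line, from 109.7 RPKM at lone genes to 291.9 RPKM in clusters of 4 or more. Right, PGC against somatic height for the 112 genes with both peaks, all of which lie above the line of equal height.

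Height in PGCs and presence in the somatic list went together. The 112 tRNA genes with both peaks had a median PGC height of 312.1 RPKM, and the 150 with a PGC peak alone 123.5 RPKM. Among 50 tRNA genes with a PGC peak under 100 RPKM, 0 had a somatic peak. Among 93 with a PGC height of 250 RPKM or more, 75 had one. Heights of both groups overlapped, as 77 of the 150 were at least as high as the lowest of the 112 (123.3 RPKM). The tallest PGC peak without a somatic peak at the gene, 683.2 RPKM at tRNA:Leu-CAA-1-1, belonged to a cluster whose other members had somatic peaks.

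PGC peaks at tRNA genes and other PGC peaks overlapped a somatic peak in equal shares overall (39.3% each), but not at equal height. Between 50 and 75 RPKM, 0 of 23 PGC peaks at tRNA genes overlapped a somatic peak (interval up to 14.8%), against 28.4% of 13012 other PGC peaks. Between 75 and 100 RPKM the counts were 0 of 24 (up to 14.2%), against 44.5% of 2573. Between 100 and 150 RPKM the share was 16.0% of 50 (7.17 to 29.1%), against 59.8% of 2049. In these 3 ranges the intervals of tRNA peaks did not reach the share of the other peaks. Between 150 and 250 RPKM, 65.0% of 40 (48.3 to 79.4%) overlapped a somatic peak, against 86.7% of 1206 (84.6 to 88.5%), and above 250 RPKM 94.4% of 36, against 98.6% of 491. In the other direction, all 73 somatic peaks at tRNA genes overlapped a PGC peak, against 45.7% of the other 17338 somatic peaks.

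At higher cutoffs the somatic share of tRNA genes also lay above its background. With peaks of at least 80 RPKM, 81.0% of tRNA genes had a peak in PGCs and 18.3% in somatic cells, against 29.9% of all genes for PGCs and 8% for somatic cells. With the 5000 highest peaks of each list, the shares were 77.2% in PGCs and 29.0% in somatic cells, against 27.3% and 16.9% of all genes. With the summit required within 200 bp, the somatic share lay below its background, at 27.9% (22.8 to 33.5%) against 38.7%. The PGC share was then 63.8%, against 48.1% of all genes.

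In PGCs the highest peak overlapped the gene itself for 259 of 262 genes, and its summit lay at a median of 27 bp downstream of the 5′ end (quartiles -7.8 and 63 bp), inside the gene for 131 of 262 genes. For the 65 lone genes with a PGC peak, 49 summits (75.4%) fell inside the gene, at a median of 23 bp, and for the 9 lone genes with a somatic peak, 3 summits (33.3%). In somatic cells the median summit lay 0.5 bp downstream of the 5′ end over 112 genes, and 37 summits (33.0%) fell inside the gene. Peak borders and summits follow steps of 50 bp, so the offset of a single gene is known only to within such a step. Genes under a shared peak are all measured from the same summit. Peak cover of the base at the 5′ end was 86.6% in PGCs and 30.3% in somatic cells. The same position at protein-coding start sites was covered in 33.6% and 9.84%. At the 76 lone tRNA genes the cover was 80.3% in PGCs and 7.89% in somatic cells.

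Cover of the flanks of lone genes in PGCs was also measured from both ends of the gene. A PGC peak covered the position 50 bp before the 5′ end at 45 of the 76 lone genes (59.2%, 47.3 to 70.4%) and the position 50 bp past the 3′ end at 29 (38.2%, 27.2 to 50.02%). At 200 bp the order was the other way, with 5 genes (6.58%, 2.17 to 14.7%) covered before the 5′ end and 21 (27.6%, 18.0 to 39.1%) past the 3′ end. At 50, 100 and 150 bp the intervals of both sides overlapped, and at 200 bp they did not. At 300 bp they overlapped again (1.45 to 12.9% before the 5′ end, 12.5 to 31.9% past the 3′ end). Both sides were measured on the same 76 genes, so these intervals are not a paired comparison.

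**Figure D3:**
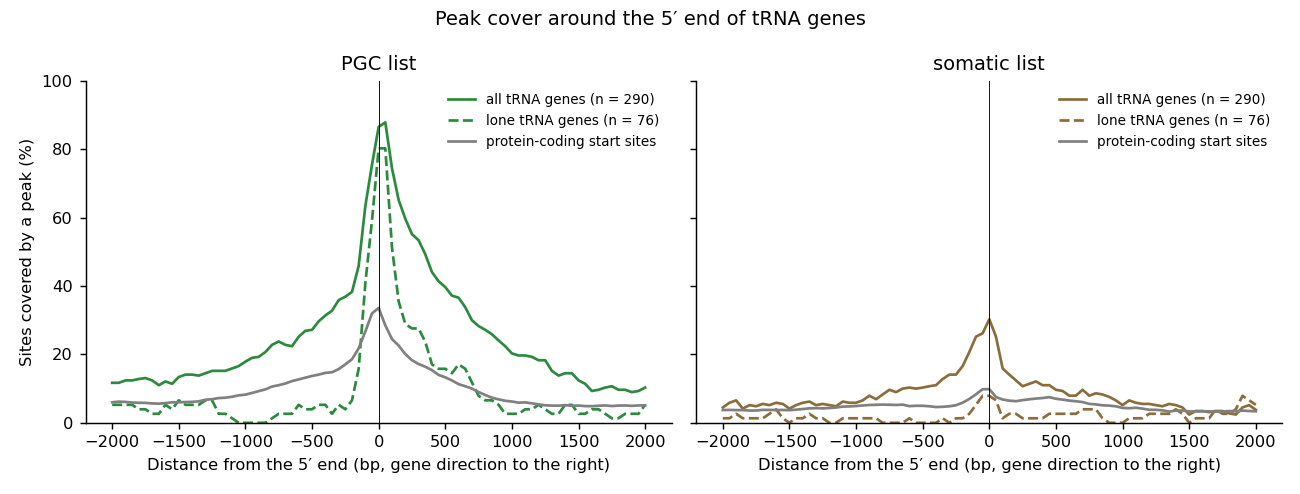
Share of sites covered by a peak (%) against distance from the 5′ end in bp, PGC list at left and somatic list at right, for all 290 tRNA genes, the 76 lone tRNA genes (dashed) and protein-coding start sites (grey). At 50 bp downstream cover by PGC peaks is 87.9% for all tRNA genes and 80.3% for lone ones, while no somatic curve passes 30.3%.

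Sequence marks of tRNA promoters were searched as a description. On the strand of the gene, the B box consensus was present in 138 of 262 genes with a PGC peak (52.7%), in 59 of 112 with a somatic peak (52.7%) and in 7 of 28 without a peak (25.0%). It was present in the first 73 bases of 0.0168% of other genes. A shorter core, GTTCNANNC, was added after these counts were seen, and lies inside the longer motif. It was found in 245 of the 262 genes with a PGC peak (93.5%) and 26 of the 28 without (92.9%), and in 1.48% of other genes. The A box consensus was present in 14 of 262 genes with a PGC peak and in 0 of 28 without, and a TTTT within 40 bp after the gene in 259 of 262 and 28 of 28. In the 250 bp on each side of the start, on either strand, TATCGATA occurred at 2.29% and GAGAG at 48.9% of the genes with a PGC peak, against 8.08% and 43.4% of other genes. The core of the B box and the terminator were thus found in like shares of tRNA genes with and without a PGC peak. The full B box consensus was not, at 52.7% with and 25.0% without. Identical copies carry the same motif and are counted as separate genes here, as the 290 genes had 95 distinct sequences. Whether the contrast holds with each sequence counted 1 time was not tested. The A box consensus was searched as a fixed pattern and was found in only 14 of all 290 tRNA genes (4.83%). A gene without this exact pattern may still carry an A box, so these counts do not show which genes lack one. Of the 28 genes without a peak, 15 lay in 4 clusters with no peak, so they are not independent.

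Copies with an identical gene sequence differed widely in peak height. Of 43 sequences with 2 or more copies, 34 had a PGC peak at every copy, 8 at some copies and 1 at none. A somatic peak was present at every copy of 4 sequences, at some copies of 31 and at none of 8. The highest copy had 3.11 times the PGC height of the lowest at the median of 40 sequences with at least 2 heights, and 3 times or more for 21 of them. A copy's height is that of its highest peak within 200 bp, and 143 genes shared their PGC peak with another tRNA gene. The folds thus compare peaks found at copies, and not the signal of each copy alone. In tRNA:Ala-CGC-1, tRNA:Thr-CGT-1, tRNA:Gln-TTG-1 and tRNA:Val-TAC-1, all copies with a height shared a single peak and so showed no difference. The widest range was that of tRNA:Leu-AAG-1, from 121.8 to 1063.8 RPKM (8.73-fold). The 13 copies of tRNA:Gly-GCC-1 had 12 PGC peaks, from 57.5 to 429.6 RPKM, and 3 somatic peaks.

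The flanks of 2 such sequences are shown because their genes are identical while their peaks are not, and because every 100-bp window that touches these genes is unique. Each line gives 50 bases before the gene, the gene of 72 bases and 40 bases after it, with the core of the B box and the first run of at least 4 T after the gene in capitals.

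tRNA:Pro-CGG-2-3: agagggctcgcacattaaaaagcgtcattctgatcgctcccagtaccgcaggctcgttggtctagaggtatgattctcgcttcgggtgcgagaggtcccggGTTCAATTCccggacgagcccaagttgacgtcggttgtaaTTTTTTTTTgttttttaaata
tRNA:Pro-CGG-2-1: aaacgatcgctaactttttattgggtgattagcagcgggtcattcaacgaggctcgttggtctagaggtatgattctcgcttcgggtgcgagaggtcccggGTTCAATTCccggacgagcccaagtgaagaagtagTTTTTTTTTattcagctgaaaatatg
tRNA:Pro-CGG-2-2: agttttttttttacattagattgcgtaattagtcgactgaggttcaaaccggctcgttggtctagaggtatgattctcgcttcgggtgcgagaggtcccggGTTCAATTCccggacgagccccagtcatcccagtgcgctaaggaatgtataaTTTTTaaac
tRNA:Gln-TTG-1-2: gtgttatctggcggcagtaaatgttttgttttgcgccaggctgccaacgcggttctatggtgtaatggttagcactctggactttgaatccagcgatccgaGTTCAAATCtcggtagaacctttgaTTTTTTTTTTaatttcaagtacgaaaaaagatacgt
tRNA:Gln-TTG-1-1: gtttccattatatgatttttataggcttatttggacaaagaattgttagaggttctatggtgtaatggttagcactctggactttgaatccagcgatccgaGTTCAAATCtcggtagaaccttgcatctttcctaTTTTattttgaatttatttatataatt

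All 3 proline genes stand alone. tRNA:Pro-CGG-2-3 (chr3L:18618390-18618461, plus strand) overlaps an exon of not, 447 bp from a protein-coding start site, and had 428.2 RPKM in PGCs and 88.7 in somatic cells, the tallest PGC peak of any lone tRNA gene. tRNA:Pro-CGG-2-1 (chrX:18565764-18565835, plus strand), in an intron of Bx and 471 bp from such a site, had 130.9 RPKM in PGCs and no somatic peak. tRNA:Pro-CGG-2-2 (chr3L:17339909-17339980, minus strand), intergenic and 647 bp from such a site, had 104.1 RPKM in PGCs and no somatic peak. Of the 50 bases before the gene, copy 2-3 shared 14 with copy 2-1 and 13 with copy 2-2, position by position, and copies 2-1 and 2-2 shared 25. The glutamine gene tRNA:Gln-TTG-1-2 (chr3R:26947263-26947334, minus strand) lay with its identical neighbour 1-3 under a PGC peak of 192.0 RPKM and a somatic peak of 71.0 RPKM. tRNA:Gln-TTG-1-1 (chr3L:11801471-11801542, minus strand) had no peak in either list, with 17 of 50 upstream bases shared. Glutamine copies 1-2 and 1-1 lie 496 and 610 bp from a protein-coding start site.

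Arrangement in clusters went with height and with presence in the somatic list. A cluster was defined as at least 2 tRNA genes with gaps of at most 5 kb, which placed 214 genes in 68 clusters and left 76 alone. A PGC peak lay at 197 clustered genes (92.1%, 87.6 to 95.3%) and at 65 lone genes (85.5%, 75.6 to 92.5%), a difference of 6.5 percentage points whose interval included 0 (-1.1 to 16.6). This difference depended on the rule for a peak. It was -24.1 points with the summit required within 200 bp, 22.4 with peaks of at least 80 RPKM, 28.0 with the 5000 highest peaks and 16.7 with 1 gene per sequence. A somatic peak lay at 103 clustered genes (48.1%, 41.3 to 55.0%) and at 9 lone genes (11.8%, 5.56 to 21.3%), a difference of 36.3 percentage points (25.0 to 44.9). The median PGC height was 214.4 RPKM in clusters and 109.7 RPKM at lone genes. Clustered genes often share a peak, since 143 genes lay under a PGC peak that also served another tRNA gene, so they are not independent points.

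Peaks over several tRNA genes were taller than peaks over 1. PGC peaks with 1 tRNA gene (118 peaks) had a median of 117.5 RPKM and a median width of 250 bp, and 21.2% of them overlapped a somatic peak. Those with 2 genes (34 peaks) had 216.4 RPKM and 875 bp, with 73.5% overlapping. Peaks with 3 genes (14) had 326.1 RPKM, and peaks with 4 or more (7) had 308.1 RPKM and 1700 bp, with 78.6% and 100% overlapping. In the somatic list the medians were 65.7 RPKM for 43 peaks with 1 gene, 74.7 RPKM for 22 peaks with 2 and 93.3 RPKM for 7 with 3. Counted as loci, 129 of 144 had a peak in PGCs and 53 in somatic cells, and among the 76 loci of 1 gene the numbers were 65 and 9.

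The 5 largest clusters behaved differently from each other. On 2R, 11 genes for arginine, asparagine, lysine and isoleucine tRNAs span 10225 bp in and beside EcR (chr2R:6161535-6171759). All 11 had a PGC peak, over 5 separate peaks from 152.2 to 474.2 RPKM, and 7 a somatic peak from 54.0 to 91.2 RPKM. The highest PGC peak of this cluster, 474.2 RPKM, covered tRNA:Lys-CTT-1-5 and tRNA:Arg-ACG-1-4, where its highest somatic peak, 91.2 RPKM, also lay. At the other end, tRNA:Arg-ACG-1-2, tRNA:Asn-GTT-1-4 and tRNA:Asn-GTT-1-5 lay under a PGC peak of 343.2 RPKM and had no somatic peak within 200 bp. This placed them among the highest genes with a PGC peak alone. The summit of that peak lay 1041, -480 and 379 bp from their 5′ ends, inside tRNA:Asn-GTT-1-6. That gene had a somatic peak of 58.3 RPKM, so the shared PGC peak did overlap a somatic peak.

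On 3R, 11 genes for alanine, proline, threonine and valine tRNAs span 13990 bp (chr3R:17617761-17631750). All had a peak in PGCs and 7 in somatic cells, and heights varied along the cluster. tRNA:Ala-AGC-2-2, tRNA:Pro-TGG-1-2 and tRNA:Ala-AGC-2-3 shared 397.5 RPKM in PGCs and 87.6 in somatic cells. Further along, tRNA:Val-AAC-1-2 had 53.2 RPKM, tRNA:Ala-AGC-2-5 69.6 RPKM and tRNA:Pro-TGG-1-3 74.6 RPKM in PGCs, each with no somatic peak. Identical alanine genes, and identical proline genes, thus had tall and low peaks within 1 cluster.

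The isoleucine and leucine cluster on 2R (chr2R:13430282-13432794), 7 genes in introns of ATP8A, lay under a single PGC peak of 683.2 RPKM that was 3300 bp wide, the widest at any tRNA gene. The somatic list held 3 separate peaks there, of 63.3 RPKM at tRNA:Ile-AAT-1-3, 175.9 RPKM at tRNA:Leu-CAA-2-1, tRNA:Ile-AAT-1-4 and tRNA:Ile-AAT-1-5, and 116.8 RPKM at tRNA:Ile-AAT-1-6 and tRNA:Ile-AAT-1-7. tRNA:Leu-CAA-1-1 at the end of the cluster had no somatic peak. On X, 7 arginine and serine genes (chrX:14014814-14017284) had 3 PGC peaks, the highest of 348.5 RPKM and the lowest of 95.3 RPKM, and a single somatic peak, of 50.1 RPKM, within reach of tRNA:Arg-TCG-2-1 and tRNA:Ser-CGA-1-1.

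The remaining cluster of 7 had no peak at all. It lies on 2R (chr2R:19725620-19728958, intergenic) and holds the initiator genes tRNA:iMet-CAT-1-1 and tRNA:iMet-CAT-1-2, the glutamate genes tRNA:Glu-TTC-1-4, tRNA:Glu-TTC-1-5 and tRNA:Glu-TTC-1-6, and tRNA:Glu-CTC-2-1 and tRNA:Glu-CTC-2-2. Every 100-bp window touching these genes is unique in the reference. The nearest PGC peaks lay 9720 bp to the left, at 119.9 RPKM, and 39693 bp to the right, at the cutoff of the list, which leaves a stretch of 52750 bp without a PGC peak. The nearest somatic peaks lay 24970 bp and 39693 bp away. The identical iMet copies elsewhere had PGC peaks of 475.8 and 93.0 RPKM.

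**Figure D4:**
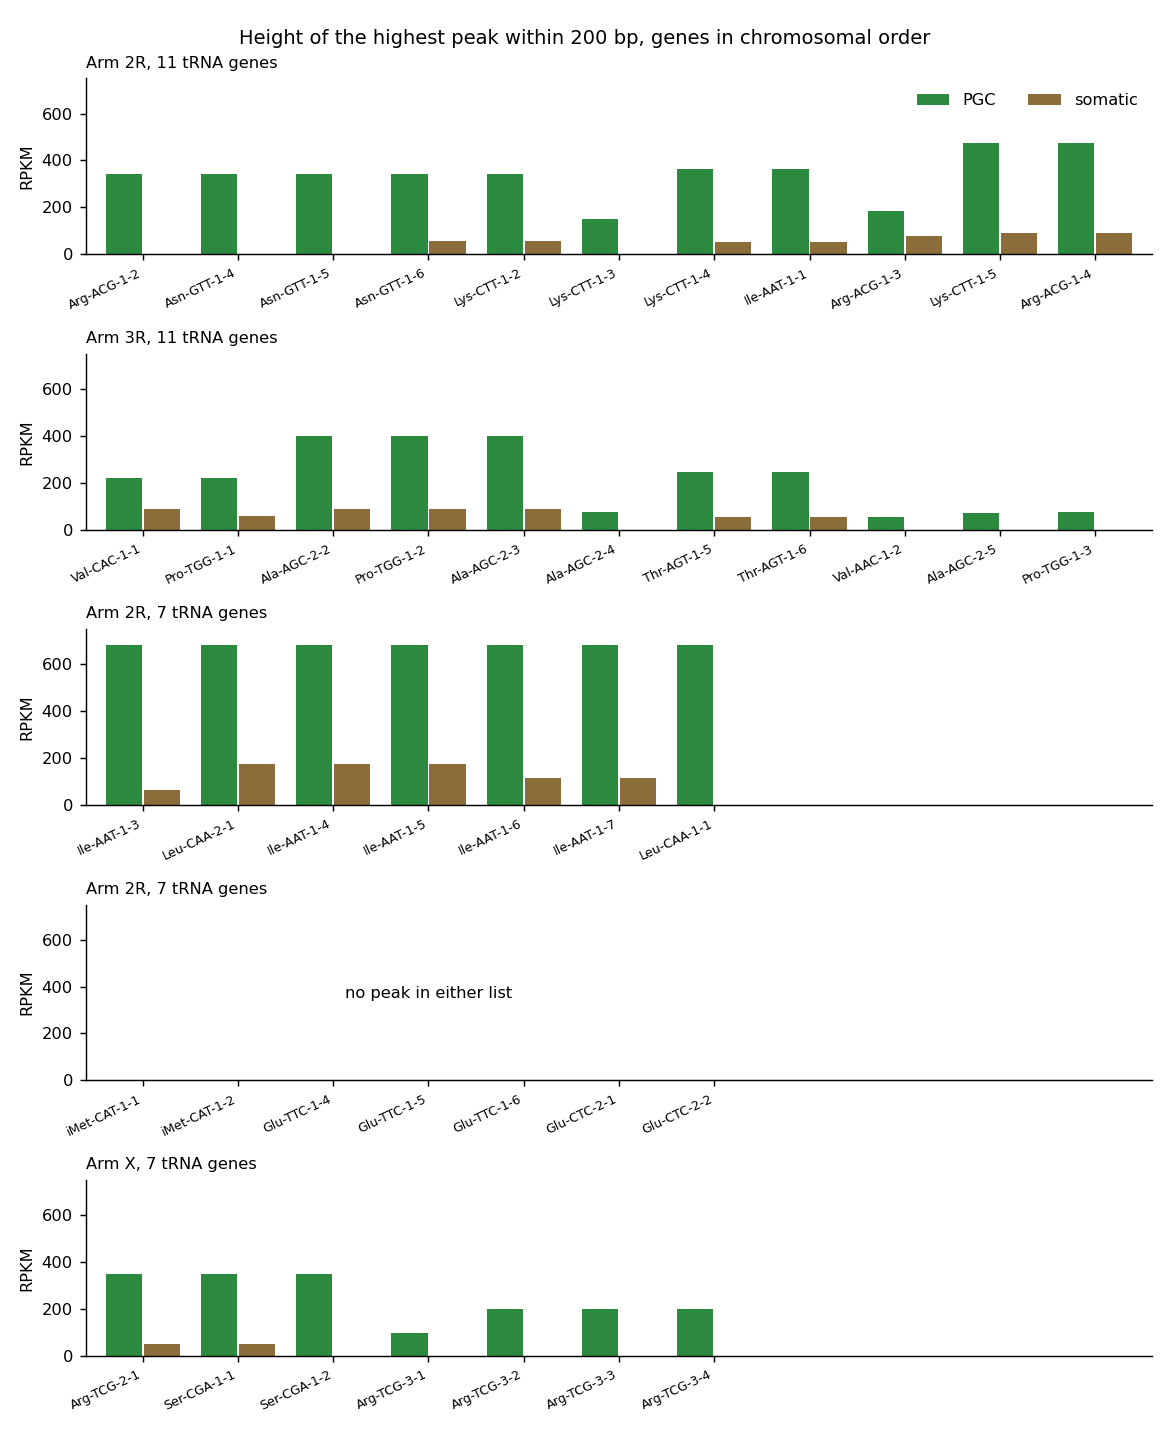
Height (RPKM, linear axis from 0) of the highest PGC peak (green, left bar) and somatic peak (brown, right bar) within 200 bp of each gene in the 5 largest clusters, in chromosomal order. The third panel, on 2R, stands at 683.2 RPKM in PGCs for all 7 genes, and the fourth, also on 2R, has no peak.

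The 28 tRNA genes without a peak were partly a matter of whole clusters. Clusters with no peak at all held 15 of them, the 7 genes above, tRNA:Trp-CCA-1-1 and 1-2 in an intron of Lrt, tRNA:Lys-TTT-2-1 to 2-4 on 3R, and tRNA:Tyr-GTA-1-1 and 2-1 on X. The lysine genes surround both 7SL RNA genes, which encode the RNA of the signal recognition particle and had no peak either, and between 21.5% and 56.4% of their 100-bp windows are unique. Of the others, 11 were lone genes, and tRNA:Glu-CTC-3-7 and tRNA:Gly-GCC-1-10 stood in clusters with peaks at other genes. Of the 28, 5 had repeated 100-bp windows, and 11 had a sequence found once in the genome. Single-copy sequences had a PGC peak at 41 of 52 genes (78.8%, 65.3 to 88.9%) and sequences with 6 or more copies at 129 of 135 (95.6%, 90.6 to 98.4%).

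By amino acid, PGC peaks were present in every class. The names of the genes define 22 classes, initiator methionine (iMet) and selenocysteine (SeC) counted apart, and 9 of them had a PGC peak at every gene. These were alanine (17 genes), asparagine (10), aspartate (14), histidine (5), isoleucine (11), leucine (22), elongator methionine (6), valine (15) and SeC (1). The lowest PGC shares were those of iMet (4 of 6, 66.7%, 22.3 to 95.7%) and glutamate (13 of 19, 68.4%, 43.4 to 87.4%), whose missing genes include the peakless cluster on 2R. Somatic shares ran from 3 of 20 for glycine (interval 3.21 to 37.9%) to 8 of 11 for isoleucine (72.7%, 39.0 to 94.0%), with SeC at 1 of 1. The intervals of most classes overlap.

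**Figure D5:**
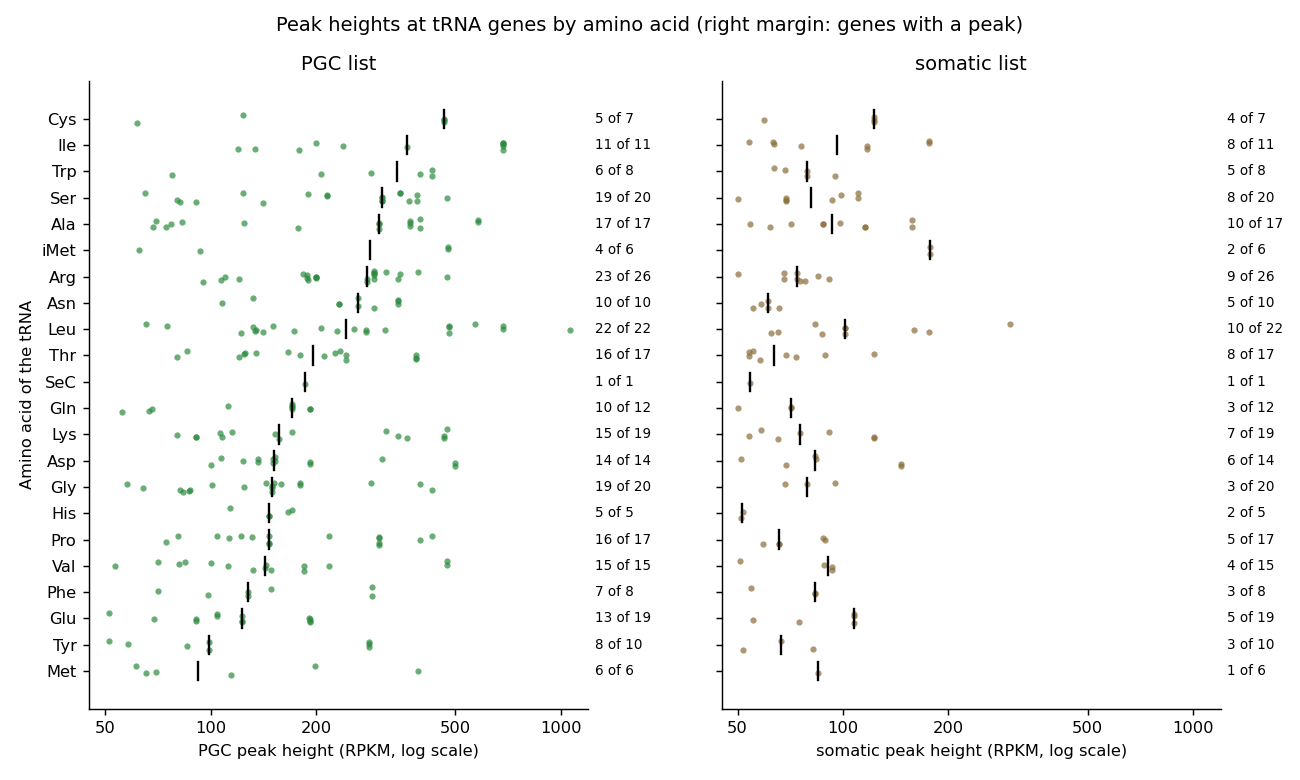
Peak height (RPKM, log scale) of each tRNA gene with a peak, by amino acid, PGC list at left and somatic list at right, with class medians as lines and the number of genes with a peak in the margin. Class medians in PGCs run from 92.2 RPKM for elongator methionine to 464.6 RPKM for cysteine, and somatic heights lie at 299.5 RPKM or less.

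Class medians in PGCs leaned on shared peaks. The cysteine median of 464.6 RPKM was the height of the 1 peak over 3 copies in Cht7, and among the 11 isoleucine genes, whose median was 363.8 RPKM, 5 shared the ATP8A peak. Elongator methionine, at 92.2 RPKM, had a PGC peak at all 6 genes but only 1 in a cluster. Its copies ran from 61.4 RPKM at tRNA:Met-CAT-1-3 to 391.5 RPKM at tRNA:Met-CAT-1-1, and copy 1-1 shared its peak with tRNA:Arg-TCT-1-1. The arginine genes tRNA:Arg-TCT-2-1 and tRNA:Arg-TCT-3-1 had none.

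The initiator methionine genes, whose tRNA starts every protein, had widely differing peaks. tRNA:iMet-CAT-1-4 and tRNA:iMet-CAT-1-5 (chr3L:14673942-14674415, in an intron of ome) shared 475.8 RPKM in PGCs and 176.8 in somatic cells, the second highest somatic level of all tRNA genes. tRNA:iMet-CAT-1-3 on 3L had 93.0 RPKM and tRNA:iMet-CAT-2-1 on 2R 62.4 RPKM in PGCs, with no somatic peak. The 2 copies in the 2R cluster had none. The single selenocysteine gene, tRNA:SeC-TCA-1-1 (chr2R:11357564-11357650), whose tRNA reads a stop codon in selenoprotein messages, had 185.6 RPKM in PGCs and 54.4 in somatic cells, though the summit of its PGC peak lay 524 bp downstream.

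The tallest peak of either list at a tRNA gene was that of tRNA:Leu-AAG-1-3 (chr2R:17145300-17145381, intergenic), with 1063.8 RPKM in PGCs and 299.5 in somatic cells. Its identical neighbour tRNA:Leu-AAG-1-2, at the other end of a pair, had 567.8 RPKM in PGCs and 159.4 in somatic cells. The other copies, tRNA:Leu-AAG-1-1 and tRNA:Leu-AAG-1-4, are lone genes in introns of pcs and Mctp and had 121.8 and 134.0 RPKM in PGCs with no somatic peak. The alanine genes tRNA:Ala-TGC-1-1 and tRNA:Ala-TGC-2-1 (2R) shared 580.3 RPKM in PGCs and 157.2 in somatic cells. tRNA:Asp-GTC-1-4 and 1-5 on 2L shared 498.1 RPKM in PGCs and 147.0 in somatic cells. Each of these loci held a close pair of tRNA genes.

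Position on the arms and relative to other genes was also described. On X, 19 of 24 tRNA genes (79.2%, 57.8 to 92.9%) had a peak in PGCs and 2 (8.33%) in somatic cells. The other genes of X had 49.3% in PGCs and 26.6% in somatic cells, the lowest somatic share of the arms. On 2R, 89.8% of tRNA genes had a peak in PGCs and 54.1% (43.7 to 64.2%) in somatic cells, against 54.2% and 44.6% of its other genes. The somatic share was 22.0% of tRNA genes against 37.5% of other genes on 2L, 35.4% against 43.5% on 3L and 39.2% against 45.3% on 3R. The somatic share of tRNA genes thus lay above that of other genes on 2R and below it on X, 2L, 3L and 3R, and on each arm the interval for tRNA genes included the share of other genes. Both tRNA genes of X with a somatic peak lay in 1 cluster and shared that peak.

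A peak close to a protein-coding start site cannot be told apart from that of the tRNA gene, so genes far from such sites were counted alone. Among 257 tRNA genes over 500 bp from any protein-coding start site, 230 (89.5%, 85.1 to 93.0%) had a peak in PGCs and 95 (37.0%, 31.0 to 43.2%) in somatic cells. Among the 33 within 500 bp, the counts were 32 in PGCs and 17 (51.5%, 33.5 to 69.2%) in somatic cells. Intergenic tRNA genes (155) had a PGC peak at 89.7% and a somatic peak at 39.4%, and tRNA genes in introns of other genes (127) at 91.3% and 37.0%. The intervals of intergenic and intronic genes overlap in both lists.

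Other genes of the pathway gave a point of comparison. Besides tRNA genes and 5S rRNA genes, 10 genes were listed by symbol as other polymerase III genes. Which polymerase transcribes each of them in flies was not checked, so the list may hold genes of another polymerase. Of the 10, 6 had a peak in PGCs and 5 in somatic cells. snRNA:7SKa, which encodes an RNA that holds back the elongation factor P-TEFb, had 713.7 RPKM in PGCs and 246.1 in somatic cells. The 3 copies of the spliceosomal U6 gene at 96A lay under 1 PGC peak of 309.1 RPKM, with somatic peaks of 83.0, 62.5 and 97.8 RPKM. The lone tRNA:Asp-GTC-1-11, 714 bp away, lay under the same PGC peak, whose summit is 1824 bp downstream of its 5′ end, and had the somatic peak of 83.0 RPKM. RNaseMRP:RNA had 290.7 RPKM in PGCs and 115.4 in somatic cells, and snRNA:U6atac 101.9 RPKM in PGCs with no somatic peak. RNaseP:RNA, snRNA:7SKb and both 7SL RNA genes had none.

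The genes for the polymerase and its factors, which are themselves protein-coding, had lower peaks. A PGC peak lay at 13 of 14 (92.9%) and a somatic peak at 7, with medians of 80.6 RPKM in PGCs and 53.3 in somatic cells. Brf, a subunit of TFIIIB, had 109.6 RPKM in PGCs and 53.3 in somatic cells, and Bdp1, another TFIIIB subunit, 104.7 and 52.4 RPKM. Trf, the TBP-related factor that serves polymerase III in flies, had 80.6 RPKM in PGCs and no somatic peak. Polr3A and Polr3B, which encode the largest subunits of the polymerase, had 96.6 and 67.9 RPKM in PGCs, and a somatic peak of 51.3 RPKM at Polr3B alone. Maf1, the repressor of polymerase III, had no peak.

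The 20 cytoplasmic aminoacyl-tRNA synthetase genes, whose enzymes charge tRNAs with amino acids, had a PGC peak at 18 (90.0%) and a somatic peak at 17 (85.0%). Their median ratio of PGC over somatic height was 1.68, close to the 1.67 of all genes and below the 3.78 of tRNA genes. HisRS, at 184.0 RPKM in PGCs and 56.9 in somatic cells, was the highest in PGCs. MetRS and LeuRS had a somatic peak alone, of 53.1 and 51.5 RPKM. The 15 mitochondrial synthetase genes had a PGC peak at 10 and a somatic peak at 5. The 5 other polymerase III genes with both peaks had a median ratio of 3.16. They include the U6 copies that share a PGC peak of 309.1 RPKM, so they are not independent points.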

How the data were processed

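ATAC-seq was run on 2 PGC and 2 somatic samples, and the 4 small RNA samples of the series were not analysed here. Per the paper's methods and the labels, the authors trimmed reads with cutadapt 4.2, aligned them to Dmel R6.32 (dm6) with Bowtie2 2.5.1, removed duplicates with SAMtools 1.17, computed RPKM coverage outside blacklisted regions with deepTools 3.5.4, averaged both replicates and called peaks with MACS2 bdgpeakcall, its cutoff set by hand. No shift of read ends is described. Each list is named as made from unique mappers. The deposited score of a peak is 10 times the RPKM at its summit and was divided by 10. Peak borders lie on a grid of 50 bp. A fixed RPKM cutoff finds fewer peaks where more of a library lies outside peaks. Read depth per sample is not given in the lists.

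Genes came from the Ensembl release 115 annotation of BDGP6.54, and sequences from the RefSeq release 6 assembly. Python 3.11.15 with numpy 2.4.6, pandas 2.3.3, scipy 1.17.1 and matplotlib 3.10.9 was used, and the distance and cluster rules were tested on simulated data. Named genes were those with the 5 highest peaks in each list or in 1 list alone, the 5 largest clusters and their members, the SeC and iMet genes and the extreme amino acid classes. The sequence sets, the extreme ratios, the genes without a peak and other named copies were picked with their values in view. The members and lists were chosen with earlier results of these data known. No test was possible with 1 pooled list per cell type. 1 listed PGC marker, nos, was not matched. Alternatives changed the distance, the cutoff, the peak width, the members counted, the cluster gap and the distance from start sites.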

Additional observations from a re-analysis of the deposited data

How the results depend on the processing

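No paired analysis was possible because each list pools its replicates, and for the same reason no replicate could be left out. Of 103 values recomputed under 14 alternatives, 65 stayed within the interval of the reported value, 37 moved outside it and 1 turned its sign. Requiring the summit within 200 bp gave 63.8% of tRNA genes with a PGC peak, 27.9% with a somatic peak, 22.4% with both, a median PGC height of 147.1 RPKM, and, over 500 bp from start sites, 62.3% in PGCs and 26.5% in somatic cells. It turned the difference between clustered and lone genes in the PGC share to -24.1 percentage points, since 1 peak over several genes has 1 summit. Over all annotated genes the summit rule gave 48.1% in PGCs and 38.7% in somatic cells. Peaks of at least 60 RPKM gave 30.7% with a somatic peak and 30.7% with both, a somatic median of 87.0 RPKM and 30.4% in somatic cells far from start sites. Peaks of at least 80 RPKM gave 81.0% in PGCs, 18.3% in somatic cells and 18.3% in both, a somatic median of 101.7 RPKM, cluster differences of 22.4 points in PGCs and 21.2 in somatic cells, and 81.3% and 19.1% far from start sites. The 5000 highest peaks gave 77.2% in PGCs, 29.0% in somatic cells and 29.0% in both, medians of 199.4 and 87.6 RPKM, a PGC cluster difference of 28.0 points, and 77.4% and 28.8% far from start sites. A distance of 500 bp gave 45.5% with a somatic peak, 45.5% with both and 43.6% far from start sites, and 1000 bp gave 52.8%, 52.4% and 51.0%, with a somatic cluster difference of 46.5 points. With 1 gene per sequence, 83.2% had a PGC peak, 81.6% far from start sites, and the cluster differences were 16.7 points in PGCs and 45.3 in somatic cells. The PGC share exceeded the somatic share under every alternative run. Over all annotated genes the somatic shares were 21.2% with peaks of at least 60 RPKM, 44.5% at 500 bp and 51.6% at 1000 bp.

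Peaks under the cutoff are not in the lists, so openness below the cutoff cannot be seen. Depth per sample is unknown, genes under 1 peak are not independent, and heights of both lists share no common scale. Purity of the sort, copy number and mapping were not tested as sources of any difference.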

Other observations

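tRNA genes longer than 90 bp, all of them tyrosine, leucine CAA or isoleucine TAT genes, kinds whose precursors are known to carry introns, had a PGC peak at 14 of 16 and a somatic peak at 6. tRNA:Tyr-GTA-1-6, tRNA:Tyr-GTA-1-7 and tRNA:Tyr-GTA-1-8 on 3R shared a PGC peak of 282.6 RPKM and had somatic peaks of 51.8, 66.5 and 82.1 RPKM, whereas the longest, tRNA:Tyr-GTA-1-9 of 186 bp on 2L, had 57.9 RPKM in PGCs and no somatic peak.

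Among tRNA genes in introns of other genes, those on the strand opposite to the host (72) had a PGC peak at 90.3% and a somatic peak at 41.7% (30.2 to 53.9%). Those on the same strand as the host (49) had a PGC peak at 91.8% and a somatic peak at 26.5% (14.9 to 41.1%). The median PGC heights were 192.1 RPKM for the opposite strand and 131.8 RPKM for the same strand. The intervals of the somatic shares overlap, and clusters that share 1 host enter these counts as several genes.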
